A study of Mus musculus with 6 samples.

Results

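The genes examined here are 10 factors that keep T lineage cells quiescent: *Foxo1*, *Foxo3*, *Foxp1*, *Klf2*, *Klf3*, *Klf13*, *Tob1*, *Btg1*, *Btg2* and *Slfn2*. They were picked by gene symbol out of the 23183 symbols measured by mRNA-seq in sorted double positive (DP) thymocytes, immature thymic T cells with CD4 and CD8 together on their surface. The 6 libraries fall into 3 of WT mice (*Nsrp1* f/f) and 3 of NSrp70-cKO mice (*Nsrp1* f/f CD4Cre), all C57BL/6 and 6 weeks old. Both genotypes thus carry the loxP-flanked (f/f) *Nsrp1* allele, and only the NSrp70-cKO mice carry the Cre recombinase driven by the *Cd4* enhancer and promoter, which are active from the late double-negative stage, before the DP stage. NSrp70, the product of *Nsrp1*, is a nuclear speckle protein that regulates pre-mRNA splicing. Nothing in the labels says whether the libraries of a genotype came from separate animals, so p-values measure only the spread between these samples.

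Quiescence is an actively kept state in which a T cell is small, metabolically quiet and out of the cell cycle. The forkhead factors FOXO1 and FOXO3 are held in the cytoplasm when AKT phosphorylates them and activate cell cycle inhibitors and homing receptor genes when they are in the nucleus, while FOXP1 binds related sites and restrains naive T cell activation. Krüppel-like factors (KLF) bind GC-rich and CACCC elements, and KLF2 switches on the receptors with which mature thymocytes leave the thymus. BTG1, BTG2 and TOB1 bring the CCR4-NOT deadenylase to mRNAs and so shorten poly(A) tails, and SLFN2 is a Schlafen protein whose loss makes mouse T cells leave quiescence.

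The stretches of 250 bases before the RefSeq start sites (GRCm38.p6) are printed for 4 members: *Klf2* and *Klf13*, which had the lowest fold changes of the 10, *Btg2*, the only one that passed the test as higher, and *Btg1*, whose ratio to *Btg2* separated the genotypes. Capitals mark every match, on either strand, to the KLF element CACCC, the FOXO core GTAAACA or the CREB site TGACGTCA. The *Klf2* stretch lies at chr8:72318812-72319061 on the plus strand, *Klf13* at chr7:63938916-63939165 on the minus strand, *Btg1* at chr10:96616751-96617000 on the plus strand and *Btg2* at chr1:134079156-134079405 on the minus strand.
Klf2: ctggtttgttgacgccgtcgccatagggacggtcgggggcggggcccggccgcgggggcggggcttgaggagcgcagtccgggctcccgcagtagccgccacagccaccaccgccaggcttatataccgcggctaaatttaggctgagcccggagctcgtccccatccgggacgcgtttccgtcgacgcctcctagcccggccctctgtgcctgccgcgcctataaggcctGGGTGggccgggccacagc
Klf13: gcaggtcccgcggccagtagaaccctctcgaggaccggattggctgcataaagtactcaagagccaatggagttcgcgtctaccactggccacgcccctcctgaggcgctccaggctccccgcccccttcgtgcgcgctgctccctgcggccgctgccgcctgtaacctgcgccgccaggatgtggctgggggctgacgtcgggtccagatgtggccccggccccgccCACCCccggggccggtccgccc
Btg1: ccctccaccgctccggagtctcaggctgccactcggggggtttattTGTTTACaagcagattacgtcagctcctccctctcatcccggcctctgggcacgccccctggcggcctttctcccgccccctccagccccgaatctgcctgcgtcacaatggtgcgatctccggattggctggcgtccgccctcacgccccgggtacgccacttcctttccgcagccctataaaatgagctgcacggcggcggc
Btg2: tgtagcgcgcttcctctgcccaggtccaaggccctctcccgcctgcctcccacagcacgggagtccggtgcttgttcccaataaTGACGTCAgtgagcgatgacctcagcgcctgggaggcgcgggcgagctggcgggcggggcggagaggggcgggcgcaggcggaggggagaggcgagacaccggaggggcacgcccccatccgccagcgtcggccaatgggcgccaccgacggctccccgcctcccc

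The *Klf2* and *Klf13* stretches each held 1 CACCC element. In *Klf2* it lay 19 to 15 bases before the RefSeq start (as GGGTG, its reverse complement). The *Klf2* window ends at 72319061, past the GENCODE start of the gene at 72319033, so this element lies inside the GENCODE gene. In *Klf13* the element lay 22 to 18 bases before the start, where its first base is shared with a match to the GC box GGGCGG. The element CACCC occurs in 52.0% of the 32851 promoters in the table, so it is common. The FOXO core occurred in *Btg1* only among the members, 204 to 198 bases before the start and written as its reverse complement, and is found in 3.17% of promoters. The CREB site occurred in *Btg2* only, 166 to 159 bases before the start, and is found in 1.55% of promoters. The MEF2 site and the SRF CArG box were in none of these windows and are in 0.14% and 1.47% of promoters. GGGCGG was matched in 32.7% of promoters and in every member but *Slfn2*, counting any of the 3 starts of *Foxp1*. The median GC content of promoters was 52.4%, whereas the member windows with a match ran from 56.0% (*Foxo1*) to 78.4% (*Klf3*). The *Slfn2* window was at 50.8%. These letters describe the windows and do not show that a factor was bound there.

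Levels are given in FPKM (fragments per transcript length and sequencing depth), a level per length that allows genes to be compared. Fold changes are cKO against WT on the log2(FPKM + 1) scale, on which changes of low genes come out too small, and adjusted p-values come from limma with the Benjamini-Hochberg method over the 10326 genes that reached an FPKM of 1 in 3 or more libraries. All 10 members passed this filter. Of all genes tested, 65.5% passed an adjusted p of 0.05, 35.8% as higher (3693 genes) and 29.8% as lower (3073 genes) in cKO, and the median log2 fold change was 0.039. When each library was scaled to the same FPKM total the split became 903 higher and 6182 lower and the median became -0.45, because the FPKM sum per library was 521296 to 531517 in WT but 701396 to 850548 in cKO. The mapped depth, estimated from the steps of 1 fragment in low values, lay between 20.6 and 20.8 M fragments in WT and at 13.1, 20.7 and 17.4 M in cKO 1, 2 and 3. The squared differences between WT libraries were 1.27 to 1.32 times counting noise and those between cKO libraries 5.36 to 11.6 times. The limma test of each gene was therefore repeated with the WT libraries averaged as 1 sample. The permutation tests of the 5 ratios given below were not repeated in this way. *Nsrp1* itself (listed as *Ccdc55*) had an FPKM of 20.2, 20.7 and 21.1 in WT and 17.7, 15.8 and 15.0 in cKO, a log2 fold change of -0.34 (SE 0.0772, adjusted p = 0.00675 from limma), for a gene-level value that does not separate deleted from retained exons. *Xist* lay between 69.8 and 72.0 in WT and between 4.07 and 5.44 in cKO, and the Y-linked *Ddx3y* was listed at 0 in WT and at 26.2 to 35 in cKO, so mouse sex and genotype cannot be told apart here.

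Of the 10 quiescence genes, 7 were lower in NSrp70-cKO DP thymocytes (*Foxo1*, *Foxo3*, *Foxp1*, *Klf2*, *Klf3*, *Klf13* and *Tob1*), 1 was higher (*Btg2*) and 2 did not pass the test (*Btg1* and *Slfn2*). The 8 that passed stand beside 65.5% of all genes tested, near that background, whereas the 7 lower members stand beside 29.8% of all genes called lower. The median log2 fold change of the members was -0.41. At the same FPKM total 8 members were lower (median -0.95), beside 6182 of all 10326 genes (median -0.45). The groups did not overlap for 8 members, near the 72.5% of all genes. Every cKO library was lower than every WT library for the 7 lower members, against 33.3% of all genes, and higher for *Btg2*, against 39.2%. The decreases of *Klf2* and *Klf13* reached 2-fold, which 4.71% of all genes did as lower.

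**Figure D1:**
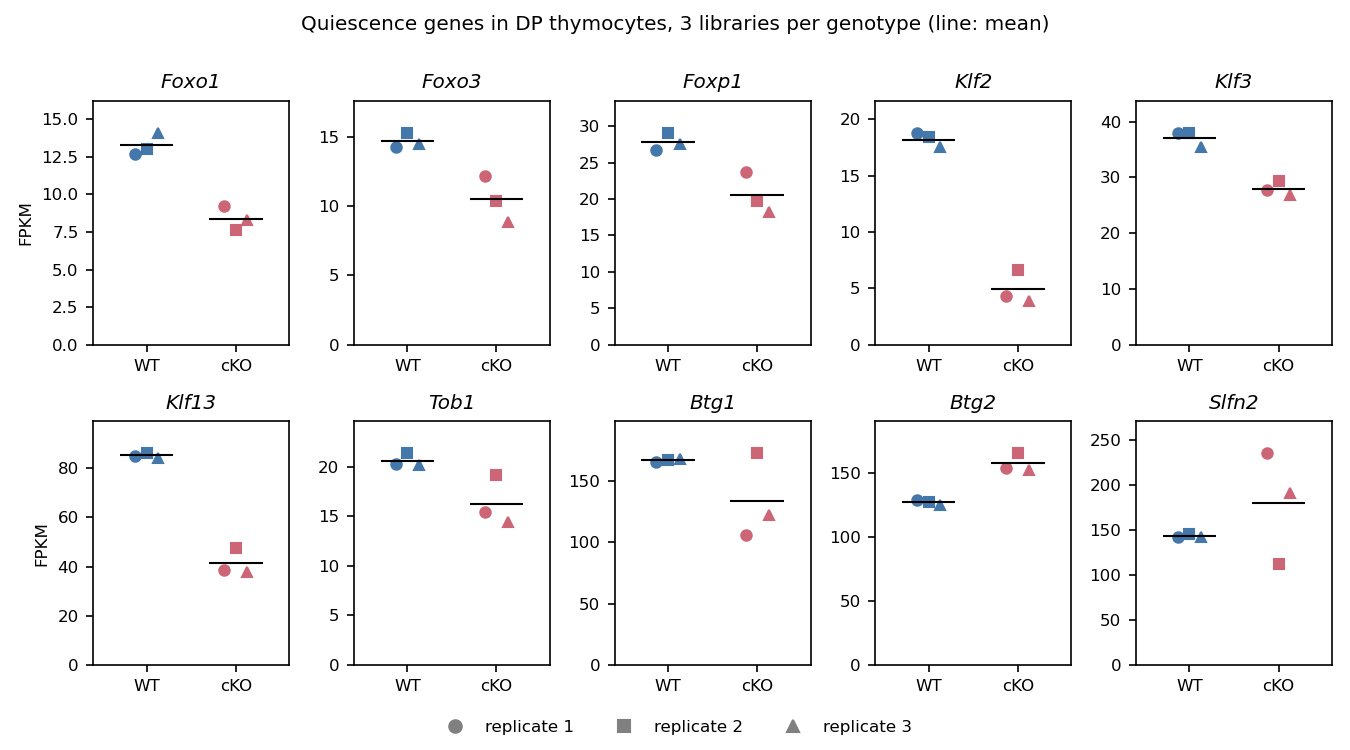
FPKM of each quiescence gene in the 3 WT (blue) and 3 NSrp70-cKO (red) libraries, with the marker giving the replicate number and the line the mean, on axes that start at 0. The groups overlap only for *Btg1* and *Slfn2*, where cKO 2 lies at 173 and 112 on the far side of the WT libraries from the other 2 cKO libraries.

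Among the forkhead factors, *Foxo1* (chromosome 3, 52268336 to 52353221, plus strand) had an FPKM of 12.7, 13 and 14.1 in WT 1, 2 and 3 and of 9.26, 7.64 and 8.27 in cKO 1, 2 and 3. The groups did not overlap, and the cKO mean was 63.3% of the WT mean. This was a log2 fold change of -0.61 (SE 0.0879, adjusted p = 0.00103 from limma), and the adjusted p was 0.0609 with WT counted as 1 sample. *Foxo3* (chromosome 10, 42181841 to 42276755, minus strand) had 14.3, 15.3 and 14.5 in WT and 12.2, 10.4 and 8.83 in cKO. Every cKO library was below every WT library, with a log2 fold change of -0.46 (SE 0.111, adjusted p = 0.00857). Once GC content and transcript length were fitted out of each library, the fold change of *Foxo3* was -0.047 (adjusted p = 0.655), and with WT as 1 sample its adjusted p was 0.143.

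*Foxp1*, the most abundant of these forkhead genes, is a long gene with 31 annotated transcripts (chromosome 6, 98925338 to 99522721, minus strand), and its FPKM adds them together. It had an FPKM of 26.8, 29.1 and 27.5 in WT and of 23.7, 19.7 and 18.2 in cKO. The cKO libraries were all lower, with cKO 1 nearest to WT, as it also was for *Foxo1* and *Foxo3*. On the log2 scale it changed by -0.43 (SE 0.103, adjusted p = 0.00873 from limma, 0.152 with WT as 1 sample). In the ratio of *Foxo1* to *Foxo3* within each library the groups overlapped, and the log2 ratio differed by -0.14 between cKO and WT (exact two-sided permutation p = 0.3, adjusted p = 0.375 over 5 ratios).

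*Klf2*, the regulator of thymic exit genes, changed most among the members. Its FPKM (chromosome 8, 72319033 to 72321656, plus strand) was 18.8, 18.4 and 17.5 in WT and 4.30, 6.59 and 3.86 in cKO. The cKO mean of 4.92 ± 1.46 (SD, n = 3) was 27.0% of the WT mean of 18.2 ± 0.668 (SD, n = 3), with no overlap. The log2 fold change was -1.73 (SE 0.158, adjusted p = 0.000218 from limma), and only 44 of the 10326 genes, 0.426%, had a lower one. *Klf2* passed the test under all 17 alternative settings, with log2 fold changes from -2.22 to -1.24, and with WT as 1 sample its adjusted p was 0.0297. At an assumed fragment length of 200 nucleotides its values stood for 597 to 645 fragments in WT and for 93, 225 and 111 in cKO 1, 2 and 3, so that counting error alone gave a coefficient of variation of up to 10.4%.

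*Klf13*, which encodes a KLF known as an activator of *Ccl5* in T lymphocytes, had the second largest decrease. Its FPKM (chromosome 7, 63886351 to 63938915, minus strand) was 85.1, 86.2 and 84.1 in WT and 38.7, 47.6 and 37.7 in cKO. The cKO libraries lay at 48.6% of WT in the mean and far below the narrow WT range. The log2 fold change was -1.03 (SE 0.0933, adjusted p = 0.000212 from limma), it passed under all 17 settings, and it was -0.45 after correction for GC content and length. A listed gene on the opposite strand of *Klf13*, *E030018B13Rik*, had an FPKM of only 0.186 to 2.28.

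*Klf3*, which encodes a KLF that acts mainly as a repressor, changed less than *Klf2* and *Klf13*. Its FPKM (chromosome 5, 64803388 to 64832901, plus strand) was 37.9, 38.0 and 35.4 in WT and 27.8, 29.4 and 26.9 in cKO. The cKO values were tight and all below WT. Its log2 fold change was -0.39 (SE 0.0642, adjusted p = 0.0017 from limma, 0.117 with WT as 1 sample). The log2 ratio of *Klf2* to *Klf3* was -0.99 ± 0.0192 in WT and -2.32 ± 0.279 in cKO (SD, n = 3 each), without overlap. The difference of -1.34 had an exact two-sided permutation p of 0.1, the smallest that 3 against 3 libraries can give, and an adjusted p of 0.167 over the 5 ratios compared. The log2 ratio of *Klf2* to *Klf13* differed by -0.70 with the same exact p of 0.1 and adjusted p of 0.167, also without overlap. Cells of a type becoming fewer and less RNA of a gene per cell cannot be told apart in these bulk libraries.

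**Figure D2:**
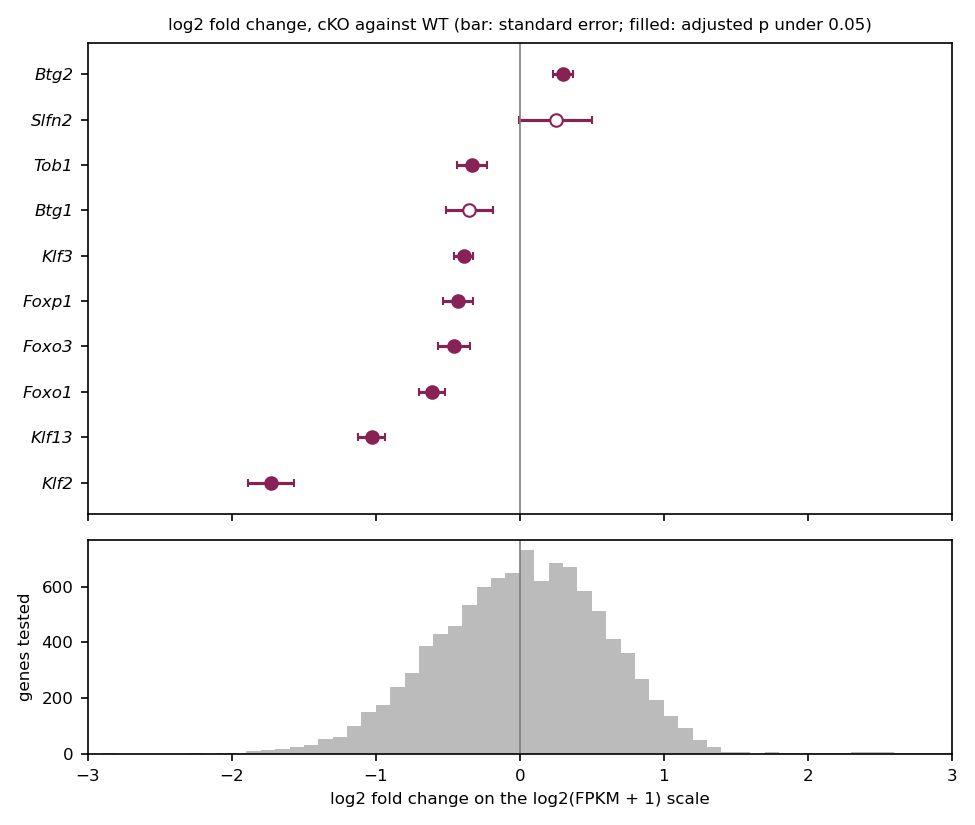
Upper panel, log2 fold change (cKO against WT, log2(FPKM + 1) scale) of each member with its standard error, filled where the adjusted p from limma was under 0.05. Lower panel, the distribution over the genes tested, of which 15 lie outside the 3 log2 units shown. *Klf2* (-1.73) and *Klf13* (-1.03) sit in the lower tail and *Btg2* (0.30) in the middle of the distribution.

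The BTG/TOB genes did not move together. *Tob1* (chromosome 11, 94211454 to 94215495, plus strand) had an FPKM of 20.3, 21.4 and 20.2 in WT and of 15.4, 19.2 and 14.4 in cKO. The groups did not overlap, but cKO 2 came close to WT. The fold change on the log2 scale was -0.33 (SE 0.104, adjusted p = 0.0263 from limma). The decrease of *Tob1* no longer passed when WT 1, WT 2, WT 3, cKO 1 or cKO 3 was left out (adjusted p from 0.0669 to 0.0903) or when WT counted as 1 sample (0.252), and it was -0.44 (adjusted p = 0.000568) without cKO 2.

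*Btg1*, the most abundant member in WT, is a 2-exon gene (chromosome 10, 96617006 to 96622809, plus strand) with an FPKM of 166, 167 and 168 in WT and of 106, 173 and 122 in cKO. The WT libraries were nearly identical, while the cKO libraries lay on both sides of them. The log2 fold change of -0.35 did not pass the test (SE 0.164, adjusted p = 0.0957 from limma). Without cKO 2 it was -0.54 (adjusted p = 0.000456). It also passed under quantile normalization (-0.77), at the same FPKM total (-0.91), after correction for GC content and length (-0.43, adjusted p = 0.0384) and with a variance for each genotype (adjusted p = 0.0339).

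*Btg2*, a target of p53 that is also induced as an immediate-early gene, was the only member that passed as higher. Its FPKM (chromosome 1, 134075170 to 134079120, minus strand) was 129, 128 and 125 in WT and 154, 166 and 153 in cKO. All cKO libraries were above all WT libraries, at 124% of the WT mean. This gave a log2 fold change of 0.30 (SE 0.0662, adjusted p = 0.00577 from limma), but it was -0.094 (adjusted p = 0.359) under quantile normalization and -0.26 (adjusted p = 0.0599) at the same FPKM total, and its adjusted p was 0.265 with WT as 1 sample. The direction of *Btg2* thus depends on the scaling.

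A ratio within a library does not depend on the scaling factor of that library. The log2 ratio of *Btg1* to *Btg2* was 0.36, 0.38 and 0.42 in WT and -0.53, 0.06 and -0.33 in cKO, so *Btg1* was the more abundant in every WT library but only in cKO 2 among the cKO libraries. The groups did not overlap, and the difference of -0.65 had an exact two-sided permutation p of 0.1, the smallest possible (adjusted p = 0.167 over 5 ratios). The log2 ratio of *Btg1* to *Tob1* was 2.96 ± 0.0443 in WT and 2.94 ± 0.2 in cKO (SD, n = 3 each), a difference of -0.022 (exact permutation p = 0.9) with overlapping groups.

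**Figure D3:**
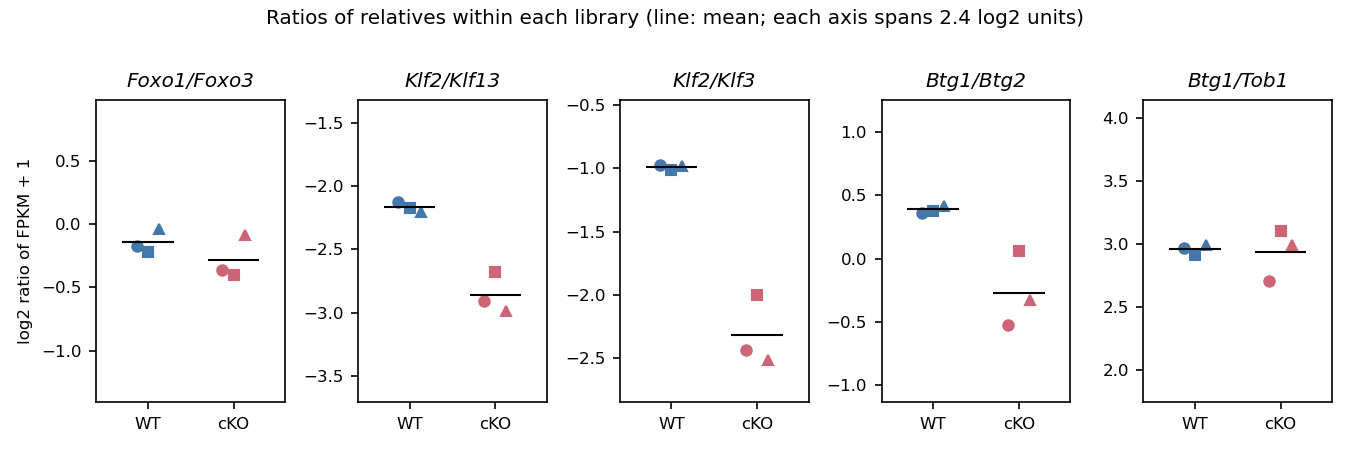
log2 ratio of (FPKM + 1) of 2 members within each library, WT in blue and cKO in red, with the mean as a line and each axis spanning the same number of log2 units. *Klf2*/*Klf13*, *Klf2*/*Klf3* and *Btg1*/*Btg2* separate the genotypes, whereas *Foxo1*/*Foxo3* and *Btg1*/*Tob1* overlap.

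*Slfn2*, the Schlafen gene whose mutation causes the loss of T cell quiescence in elektra mice, was the least stable member. Its FPKM (chromosome 11, 83065112 to 83070678, plus strand) was 143, 146 and 142 in WT and 236, 112 and 192 in cKO. cKO 1 and cKO 3 lay above WT and cKO 2 below. The log2 fold change of 0.25 did not pass (SE 0.253, adjusted p = 0.403 from limma), and it was -0.21 under quantile normalization, -0.30 at the same FPKM total and -0.065 after correction for GC content and length. Without cKO 2 it was 0.57 (adjusted p = 0.00149).

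The library cKO 2 was the cKO library nearest to the WT mean for *Klf2*, *Klf3*, *Klf13*, *Tob1*, *Btg1* and *Slfn2*, 6 of the 10, as it was for 51.7% of all genes. cKO 1 was nearest for the 3 forkhead genes (31.0% of all genes) and cKO 3 for *Btg2* (17.3%). Without cKO 2 all 10 members passed, beside 74.1% of all genes, with 8 lower beside 34.1% of all genes and 2 higher beside 40% of all genes. With the WT libraries as 1 sample 2 members were called lower, *Klf2* and *Klf13*, beside 8.74% of all genes, and 0 higher, beside 7.16%.

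**Figure D4:**
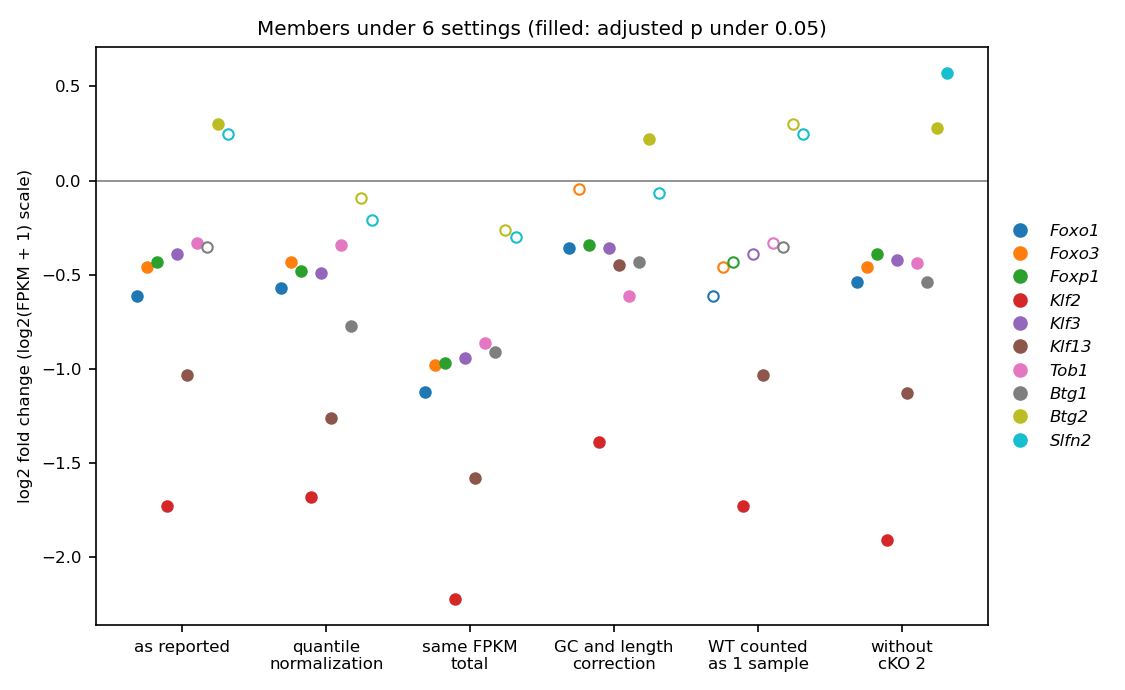
log2 fold change of each member (log2(FPKM + 1) scale) as reported and under 5 other settings, filled where the adjusted p was under 0.05. *Klf2* is the lowest in each of the 6, and *Btg2* and *Slfn2* change sign under quantile normalization and at the same FPKM total.

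The order of the levels also differed. In WT, *Btg1* (mean FPKM 167), *Slfn2* (144), *Btg2* (128) and *Klf13* (85.2) led, followed by *Klf3* (37.1), *Foxp1* (27.8), *Tob1* (20.6), *Klf2* (18.2), *Foxo3* (14.7) and *Foxo1* (13.3), and no neighbours in this order overlapped. In cKO, *Slfn2* (180), *Btg2* (158) and *Btg1* (134) overlapped with one another in order, as did *Foxp1* (20.5) with *Tob1* (16.3) and *Foxo3* (10.5) with *Foxo1* (8.39). *Klf2*, above both *Foxo* genes in WT, was the lowest of the 10 in cKO at 4.92 and overlapped with none.

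Of 26 relatives from the same families, 11 were under the filter. Beside 29.8% of all genes called lower and 35.8% called higher, 9 of the 15 relatives tested were lower, 4 were higher and 2 did not pass. Their median log2 fold change was -0.44. Among the lower ones *Foxo4*, the third FOXO gene of T cells, had an FPKM of 33.1 ± 0.53 in WT and 20.8 ± 2.87 in cKO (SD, n = 3 each, log2 fold change -0.66). The log2 fold change was -1.46 for *Foxp4*, -0.93 for *Tob2* and -2.08 for *Slfn1* (from a mean FPKM of 5.8 to 0.6). After correction for GC content and length *Foxo4* was at -0.32, *Foxp4* at -0.81, *Tob2* at -0.65 and *Slfn1* at -2.45. In the other direction, *Slfn9* rose by 1.13, *Slfn3* by 0.76, *Klf10* (a TGF-beta induced KLF) by 0.65 and *Klf6* by 0.33. At the same FPKM total, where the median of all genes was -0.45, 1 relative was higher and 10 were lower: *Slfn3* was at 0.26 (adjusted p = 0.126) and *Klf10* at 0.11 (adjusted p = 0.363), neither passing, and *Klf6* at -0.21. The Schlafen family held genes called in both directions also at the same FPKM total (*Slfn9* at 0.66 and *Slfn1* at -2.43). Schlafen genes are close copies in 1 cluster, and how the authors' counting shared reads among them is not given in the sources used here, so their single values are uncertain.

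Of 19 genes that control FOXO proteins, 5 were higher, 5 lower and 9 did not pass, with a median of 0.0067. These counts stand beside 35.8% of all genes called higher and 29.8% called lower, 65.5% in either direction. At the same FPKM total 1 of the 19 was higher and 14 were lower (median -0.45, the same as that of all genes). Under quantile normalization 4 were higher and 8 lower. *Skp2*, the ubiquitin ligase subunit that targets FOXO1, was at 7.12, 6.94 and 7.08 in WT and 15.1, 15.4 and 15.4 in cKO, with a log2 fold change of 1.02 (SE 0.059, adjusted p = 8.63e-05 from limma). The 14-3-3 genes *Ywhaq* and *Ywhah*, whose products hold FOXO in the cytoplasm, rose by 0.59 and 0.70, while *Ywhag* was at -0.39. At the same FPKM total *Ywhaq* was at 0.033 (adjusted p = 0.731) and *Ywhah* at 0.15 (adjusted p = 0.195), neither passing. The export receptor gene *Xpo1* was at 0.45 but at -0.10 with the same FPKM total. The kinase genes *Akt1* (-0.45) and *Akt2* (-0.30) were lower, but at 0.038 and 0.16 after correction for GC content and length. *Inpp5d*, a phosphatase of the same arm, was at -0.36 and at -0.0033 after that correction.

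Of 24 known target genes of FOXO factors and KLF2, 12 were lower, 4 higher and 8 did not pass, with a median of -0.34. These counts stand beside 29.8% of all genes called lower and 35.8% called higher, with a median of 0.039. At the same FPKM total 19 were lower and 0 higher (median -0.90), beside 6182 lower and 903 higher of all 10326 genes (median -0.45). *S1pr1*, the egress receptor that KLF2 activates, had an FPKM of 4.59, 4.11 and 4.79 in WT and of 0.133, 0.203 and 0.201 in cKO, with a log2 fold change of -2.21 (SE 0.0889, adjusted p = 3.42e-05 from limma). The cKO values were far below the WT range. *Ccr7* (-2.64), *Itgb7* (-1.74) and *Il7r* (-1.67), homing and cytokine receptor genes, were also lower. The oxidative stress genes *Sod2* (0.43) and *Cat* (0.35) were higher and at -0.086 and -0.20 with the same total, and the autophagy gene *Map1lc3b* was at 0.43, at -0.027 under quantile normalization and at -0.13 with the same total.

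*S1pr1*, *Ccr7*, *Il7r* and *Itgb7* are also markers of mature single-positive thymocytes. Of 10 such markers 8 were lower, 1 higher and 1 did not pass, beside 29.8% of all genes called lower and 35.8% called higher. The marker median was -1.68, and -2.00 at the same FPKM total. The summed FPKM of the 10, as deposited, was 246 to 247 in WT and 210 to 226 in cKO, with none of the 10 under an FPKM of 1 in all libraries. This sum is weighted to abundant markers such as *H2-Q2* (mean 81.4 in WT and 75.4 in cKO, not passing), while *Ccr7* was at 15.5 and 1.69. Of 10 DP thymocyte markers, all at an FPKM of 1 or more in some library, 6 were higher and 2 lower, their sum being 5650 to 5728 in WT and 7376 to 9593 in cKO, a rise that goes with the larger FPKM total of the cKO libraries. Under quantile normalization 1 DP marker was higher and 5 lower (median -0.11), and at the same FPKM total 2 were higher and 4 lower (median -0.078). The part of these shifts in the lower *Klf2*, *S1pr1* and *Ccr7* values was not tested. All 4 double-negative thymocyte markers tested were lower. The sum over all 6 listed, 2 of them under the filter, was 21.9 to 23.3 in WT and 8.23 to 9.32 in cKO. The 4 tested include *Il7r* (FPKM 5.86 to 6 in WT and 1.06 to 1.22 in cKO), which is also in the mature single-positive and the target lists. Erythroid markers summed to 1.98 to 2.73 in WT and 12.4 to 26.6 in cKO, B cell markers to 23.2 to 24.7 and 27.2 to 39.9, myeloid markers to 11.2 to 12.1 and 10.9 to 18.0, stromal markers to 3.94 to 4.64 and 2.21 to 4.03, and dendritic and innate-like lymphocyte markers to under 1 in every library.

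**Figure D5:**
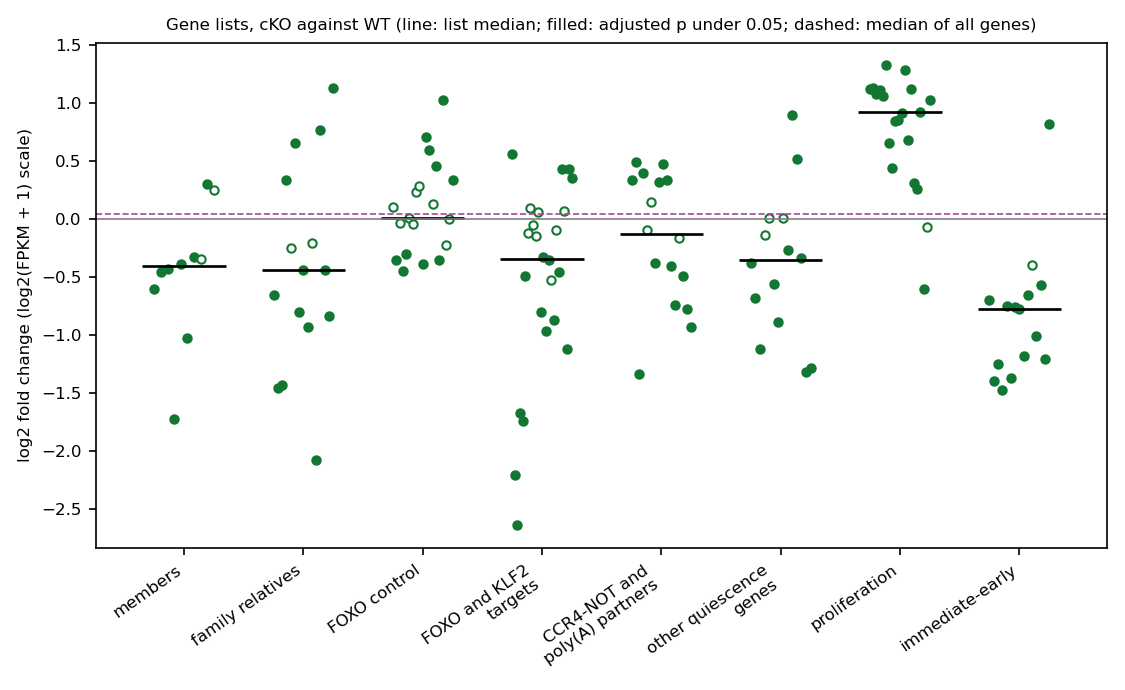
log2 fold change (cKO against WT, log2(FPKM + 1) scale) of each tested gene of the members and 7 other lists, filled where the adjusted p from limma was under 0.05, with the list median as a line and the median of all genes tested (0.039) dashed. Most proliferation genes lie above 0 and most immediate-early genes below it, and the members have a median of -0.41.

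The number of partners of the BTG/TOB proteins called in each direction depended on the scaling, while the list median stayed below 0. Beside 35.8% of all genes called higher and 29.8% called lower stand 16 genes of the CCR4-NOT complex and poly(A) tail factors. Of these 16, 6 were higher, 7 lower and 3 did not pass (median -0.14). Under quantile normalization 3 were higher and 9 lower (median -0.41). At the same FPKM total 0 were higher and 10 lower (median -0.70), beside 903 higher and 6182 lower of all 10326 genes (median -0.45). *Cnot3*, a regulatory subunit, was at 38.5, 38.3 and 38.0 in WT and at 15.0, 15.7 and 13 in cKO, with a log2 fold change of -1.34 (SE 0.0778, adjusted p = 8.63e-05 from limma). *Pabpc4* (-0.49) and *Cnot11* (-0.41) were lower, as was *Tnks1bp1* (-0.74, but -0.014 after correction for GC content and length). *Cnot1*, the scaffold (0.33), *Cnot2* (0.49), *Cnot10* (0.33) and *Rqcd1* (0.47) were higher, but at -0.22, -0.065, -0.22 and -0.07 with the same FPKM total.

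Beside 29.8% of all genes called lower and 35.8% called higher stand 14 other genes of T cell quiescence. Of these 14, 9 were lower, 2 higher and 3 did not pass, with a median of -0.36. At the same FPKM total 12 were lower and 1 higher (median -0.88), beside 6182 lower and 903 higher of all 10326 genes (median -0.45). *Bach2*, a repressor of effector genes, was at -1.12, *Lef1* at -0.89, *Dgkz*, which removes diacylglycerol, at -1.32 and *Tsc2*, an inhibitor of mTORC1, at -0.68. After correction for GC content and length *Bach2* was at -0.86, *Lef1* at -0.96, *Dgkz* at -0.67 and *Tsc2* at -0.16. The CDK inhibitor genes *Cdkn2c* (0.89) and *Cdkn2d* (0.51, and -0.046 with the same FPKM total) were higher. Of 20 proliferation genes 18 were higher, 1 lower and 1 did not pass, beside 35.8% of all genes called higher and 29.8% called lower. The list median was 0.92. It was 0.59 under quantile normalization (17 higher, 1 lower) and 0.38 at the same FPKM total (13 higher, 4 lower). Of all 10326 genes 903 were higher and 6182 lower at that total. *Ccnb1*, the mitotic cyclin, rose from 38.6 ± 0.87 to 97.9 ± 5.95 (SD, n = 3 each, log2 fold change 1.32), *Cdk1* was at 1.11, *Top2a* at 1.07 and *Ccna2* at 1.06, while *Myc* was at -0.61.

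Immediate-early genes, which also respond to cell handling, were mostly lower. Of 15 tested, 13 were lower, 1 was higher and 1 did not pass, beside 29.8% of all genes called lower and 35.8% called higher. The list median was -0.78 (-1.16 under quantile normalization and -1.31 at the same FPKM total, where that of all genes was -0.45). *Fosb* was at -1.40, *Egr1* at -1.37, *Jund* at -0.75 and *Zfp36* at -0.57, whereas *Nfkbia* was at 0.82, which did not pass at the same FPKM total (0.27, adjusted p = 0.408) or after correction for GC content and length (0.65, adjusted p = 0.0763). *Btg2*, induced with such genes in many cells, was not lower in any cKO library as deposited, though its direction turned under quantile normalization and at the same FPKM total. The part of handling in the values of *Klf2* and the other members was not tested.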

How the data were processed

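mRNA-seq was measured in 3 WT and 3 NSrp70-cKO libraries of sorted DP thymocytes. The authors made poly(A)-enriched, directional libraries, sequenced them on a NovaSeq, trimmed adaptors, aligned to mm10 by Tophat and deposited the FPKM values that Cufflinks gave for each gene symbol. Tool versions, the annotation and the strand setting are not given in the sources used here. The study tested counts with DESeq2, which FPKM values do not allow.

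The labels gave each library's group and replicate number. FPKM values were divided by median-of-ratios size factors, filtered at 1 in at least 3 libraries and tested as log2(FPKM + 1) with limma 3.58.1 (trend) in R 4.3.3, a fit that was tested on simulated data. The 5 ratios were compared by exact permutation tests. Depth was estimated at 2609 genes with 1 transcript over 1000 nucleotides, with fragments of 200 assumed. Intervals from these fragments cover counting error only. Gene positions are from GENCODE M21 (GRCm38) and promoters from RefSeq. GC content and length were fitted with natural splines of 5 degrees of freedom.

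The members and lists were chosen with earlier results of these data known. All members are named, with, per list, up to 4 called genes of smallest adjusted p in each direction, a check of the knockout, 2 sex-linked genes and the gene most alike each member. A gene that this rule names is not reported here. Alternatives covered pseudocount, filter, scaling, trend, variance, replicate block, GC and length, WT as 1 sample and each replicate left out. Replicate numbers did not pair the samples (correlations of deviations of same-numbered libraries -0.02, 0.04 and 0.03).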

Additional observations from a re-analysis of the deposited data

How the results depend on the processing

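Under 17 alternative settings *Klf2* and *Klf13* passed as lower each time, *Foxo1*, *Foxp1* and *Klf3* in all but the one with the WT libraries as 1 sample, and *Foxo3* in 15. With the WT libraries as 1 sample, members called lower went from 7 to 2 and members called higher from 1 to 0, and the genes called fell from 13 to 5 of the family relatives, from 10 to 1 of the FOXO control genes, from 16 to 7 of the FOXO and KLF2 targets, from 13 to 2 of the CCR4-NOT and poly(A) genes, from 11 to 6 of the other quiescence genes and from 14 to 5 of the immediate-early genes, a setting with fewer samples. Members called higher were 0 under quantile normalization, beside 3475 of 10326 genes, and 0 at the same FPKM total, beside 903, where *Btg2* turned to -0.094 and -0.26 and *Slfn2* to -0.21 and -0.30, and *Slfn2* was -0.065 after correction for GC content and length. The cause was not tested. Leaving out 1 library gave 6 to 8 members called lower and 1 to 2 called higher, the 8 and the 2 being without cKO 2, and the log2 ratio difference of *Btg1* to *Tob1* ranged from -0.10 to 0.089, the only positive value being without cKO 1. With the replicate number as a block 7 members were lower and 1 higher, all genes gave 3513 higher and 2954 lower, and no member's call changed, but the replicate numbers do not pair the samples. Of the 5 members whose fragments were estimated (*Foxo1*, *Klf2*, *Tob1*, *Btg2* and *Slfn2*), *Klf2* had the fewest, 93 in cKO 1.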

Other observations

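The genes whose log2(FPKM + 1) followed each member most closely over the 6 libraries were described by Pearson's r, with no test, since these libraries form 2 genotype groups and any gene that separates them scores high. *Klf2* was most like *Otud5*, which encodes a deubiquitinase, with an r of 0.9997, and *Otud5* had an FPKM of 58.3, 57.2 and 56.5 in WT and of 36.7, 42.2 and 35.8 in cKO. *Klf13* was most like *Fbrs* (r = 0.9999), at 82.5, 83.5 and 80.6 in WT and 22.7, 32.4 and 21.5 in cKO. In both pairs cKO 2 was the cKO library nearest to WT. *Btg1* was most like *Birc2*, an inhibitor of apoptosis gene (r = 0.9980), at 37.1, 36.5 and 37.8 in WT and 22.4, 39.3 and 26.6 in cKO, so its cKO libraries also lay on both sides of WT. *Slfn2* was most like *Ccdc71* (r = 0.9981), at 14.2, 14.5 and 14 in WT and 20.9, 12.1 and 17.5 in cKO, with the same crossing of WT by cKO 2. *Btg2* was most like *Cnep1r1* (r = 0.9994) and *Tob1* most like *Dgke* (r = 0.9980). *Foxo1*, *Foxo3*, *Foxp1* and *Klf3* were most like *Ube4b*, *Mast2*, *Nrg2* and *Ap5z1*, with r from 0.9955 to 0.9978. Between 116 (*Slfn2*) and 1665 (*Klf13*) genes had an r over 0.95 with a member, so the closest gene was 1 of many.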
